A study of Mus musculus with 18 samples.

Results

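The core circadian clock genes were examined as 10 genes chosen by name: *Arntl*, *Clock* and *Npas2*, which encode the activators of the clock, *Per1*, *Per2*, *Per3* and *Cry1*, which encode its repressors, *Nr1d1* and *Nr1d2*, which encode the REV-ERB nuclear receptors, and *Dbp*, which encodes a transcription factor of the clock output. They were taken by symbol from the 55487 genes of the count files, and all 10 were present and passed the filter on low counts. The libraries were made from whole-thickness ileum of 18 chow-fed C57BL6/J mice, with 1 library per mouse. The IEC-*Ppara* mice, 6 heterozygous and 6 homozygous, carried 1 or 2 alleles of CAG-*Ppara*,-*EGFP*, a cassette at the *Col1a1* locus that Cre inverts to express FLAG-tagged *Ppara* and *EGFP*, together with *Villin-CreERT2*, a Cre recombinase that acts in intestinal epithelial cells (IEC) after tamoxifen. The 6 littermate controls carried the cassette without *Villin-CreERT2*. All mice received tamoxifen (100 mg/kg) daily for 3 days at 8 to 13 weeks of age and were analyzed 2 weeks later. They were kept on a 14-h light cycle, and the hour of tissue collection was not given in the sources used here. By sex, 3 of the controls were female, as were 2 of the 6 mice in either IEC-*Ppara* genotype.

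The clock is a transcriptional feedback loop that runs in nearly every cell. BMAL1, the product of *Arntl*, pairs with CLOCK or NPAS2, binds E-box sequences and activates the *Per*, *Cry*, *Nr1d1*, *Nr1d2* and *Dbp* genes, and PER and CRY proteins then repress this pair. The REV-ERB receptors repress *Arntl* and *Npas2* through ROR elements, and DBP and its relatives activate genes that carry a D-box. In the intestine, clock genes of the epithelium and the muscle wall follow the light cycle and feeding, and transcripts driven by E-boxes peak at another time of day than *Arntl*.

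These 3 sequence elements were searched, on both strands, in the RefSeq promoter windows of the clock genes (GRCm38.p6, from 250 bases before to 50 bases after a start site), because they are the elements through which the loop is known to act. Of the 10 genes, 9 had an entry, with 13 windows in all, and *Per2* had none. The E-box was searched as CACGTG, the D-box as TTATGTAA or TTACGTAA and the ROR element as TAGGTCA. Each match is shown on the strand of its gene within 30 bases, with the element in capitals.
Cry1 E-box: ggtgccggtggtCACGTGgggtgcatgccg
Per1 E-box: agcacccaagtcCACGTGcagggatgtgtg
Per3 D-box, distal: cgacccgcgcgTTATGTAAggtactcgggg
Per3 D-box, proximal: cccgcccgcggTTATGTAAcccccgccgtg
Arntl ROR element: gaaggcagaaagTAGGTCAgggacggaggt
The *Cry1* stretch lies at chr10:85185097-85185126 (minus strand), with the E-box starting at -60 from the start site. The *Per1* stretch lies at chr11:69098771-69098800 (plus strand), with the E-box at -166. The *Per3* stretches lie at chr4:151044852-151044881 and chr4:151044805-151044834 (minus strand), with D-boxes at -205 and -158. The *Arntl* stretch lies at chr7:113207529-113207558 (plus strand), with the ROR element at 31 bases after the start site. Of all 32851 promoter windows, 7.15% held the E-box, 1.06% a D-box and 2.61% the ROR element. The other 5 genes with an entry had none of these letters in their windows. Only these exact letters within these windows were searched, so a gene without a match may carry an element elsewhere or in another form.

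Library totals ran from 38528522 to 50376371 counts. The transgene followed the labels, with *Ppara* between 25.8 and 47.4 CPM (read counts scaled to a common library total) in controls, between 107 and 196 CPM in heterozygous mice and between 184 and 279 CPM in homozygous mice, so that controls overlapped with neither IEC-*Ppara* group. Enterocyte markers were high in every library, including *Vil1*, which encodes villin, at 2088 to 3247 CPM and *Epcam*, an epithelial adhesion molecule, at 2208 to 2823 CPM. Smooth muscle markers varied widely, with *Myh11*, the smooth muscle myosin heavy chain, at 198 to 3294 CPM and *Des*, which encodes desmin, at 36.2 to 1430 CPM. In bulk tissue, fewer cells of a type and less RNA per cell cannot be told apart.

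All clock genes were well measured, with between 501 counts (*Arntl* in homozygous replicate 6) and 13807 counts (*Nr1d1* in homozygous replicate 2) in any library. On the FPKM scale, which divides by gene length and so allows levels to be compared between genes, *Nr1d1* had the highest level, at 70.0 ± 13.5 FPKM (SD, n = 18), and stood above *Dbp* in 18 of 18 libraries. *Dbp* was at 18.4 ± 10.2 FPKM, *Nr1d2* at 13.7 ± 4.14 FPKM, *Per1* at 13.1 ± 3.29 FPKM, *Npas2* at 11.1 ± 3.65 FPKM and *Per2* at 10.0 ± 3.73 FPKM. *Cry1* followed at 6.07 ± 0.994 FPKM, *Clock* at 4.75 ± 0.787 FPKM, *Arntl* at 3.78 ± 1.35 FPKM and *Per3* at 3.29 ± 1.61 FPKM. Of the neighbours in this order, *Nr1d1* and *Dbp*, *Per2* and *Cry1*, and *Cry1* and *Clock* differed in mean by more than the SD of either gene, and the other neighbours did not. In GRCm38, the activator genes lie at chr7:113207465-113314126 (*Arntl*, plus strand), chr5:76209868-76304792 (*Clock*, minus strand) and chr1:39193731-39363236 (*Npas2*, plus strand). The repressor genes *Per1*, *Per2* and *Cry1* lie at chr11:69095217-69109960 (plus strand), chr1:91415982-91459324 (minus strand) and chr10:85131700-85185064 (minus strand), and *Nr1d2* at chr14:18204054-18239127 (minus strand). Some of the 10 genes share bases with another gene, and whether the counting used strand is not given in the sources used here. *Nr1d1* (chr11:98767932-98775333, minus strand) shares 1075 bases with *Thra* (plus strand, mean 129.6 CPM), and *Dbp* (chr7:45705088-45710203, plus strand) shares 737 bases with *Sphk2* (minus strand, mean 103.5 CPM). *Per3* (chr4:151003652-151044665, minus strand) lies within *Camta1* (minus strand, mean 7.57 CPM). Reads that could belong to both genes of such a pair were left out of the deposited counts as ambiguous.

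Clock genes differed more between mice of one genotype than between genotypes. *Dbp* spanned 25.2 to 95.5 CPM among controls (median 50.1), 21.7 to 119 CPM in heterozygous mice (median 38.4) and 31.1 to 91.8 CPM in homozygous mice (median 51.7). *Arntl* spanned 18.4 to 45.2 CPM among controls (median 28.9), 16.6 to 38.5 CPM in heterozygous mice (median 31.7) and 10.7 to 39.9 CPM in homozygous mice (median 27.4). The ranges of the 3 genotypes overlapped for both genes. For *Per3* the range was likewise 16.3 to 48.7 CPM among controls, and it was 19.2 to 48.4 CPM and 16.5 to 70.5 CPM among heterozygous and homozygous mice. Over all 18 libraries, the highest value exceeded the lowest 5.48-fold for *Dbp*, 4.31-fold for *Per3*, 4.22-fold for *Arntl*, 3.97-fold for *Per2* and 3.62-fold for *Npas2*. The range was narrower for *Per1* (2.82-fold), *Nr1d2* (2.65-fold), *Cry1* (2.16-fold), *Clock* (1.94-fold) and *Nr1d1* (1.86-fold).

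**Figure D1:**
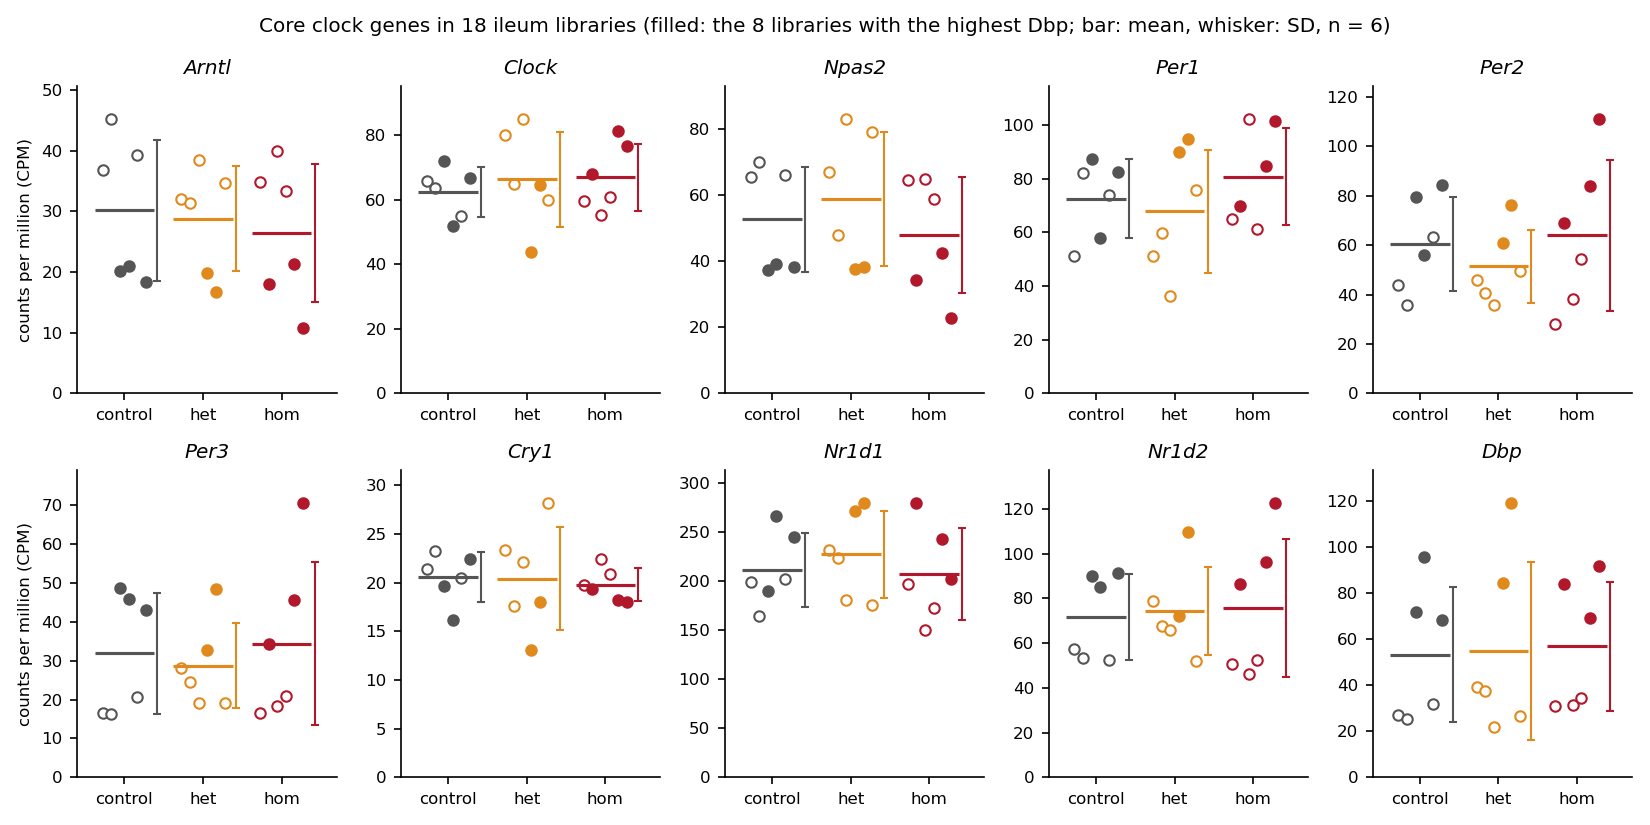
Level of each clock gene (CPM, y axis) in the 6 libraries of each genotype (x axis; het, heterozygous; hom, homozygous), with 1 point per mouse, horizontal bars for the mean and whiskers for the SD. Filled points are the 8 libraries with the highest *Dbp*, which lie at 68.4 CPM or above and occur in all 3 genotypes.

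The SD of log2 CPM within genotypes, a measure of the spread between mice, was 0.88 for *Dbp*, 0.74 for *Per3*, 0.59 for *Per2*, 0.57 for *Arntl*, 0.50 for *Npas2*, 0.49 for *Nr1d2* and 0.42 for *Per1*. It was 0.32 for *Nr1d1*, 0.28 for *Clock* and 0.26 for *Cry1*, and the median over the 12645 genes tested was 0.19. Set against all genes within 0.5 log2 units of its own mean level, *Dbp* had a wider spread than 99.6% of 2415 genes, *Per3* than 98.6% of 2425 and *Per2* than 98.6% of 2331. *Arntl*, *Npas2*, *Nr1d2* and *Per1* had a wider spread than 97.2%, 97.5%, 97.7% and 96.7% of the genes of their level. *Nr1d1*, *Clock* and *Cry1* exceeded 94.6%, 88.5% and 77.8% of theirs. *Dbp* and *Per3* were thus the most variable of the 10 on the log2 scale, and *Cry1* and *Clock* the least.

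**Figure D2:**
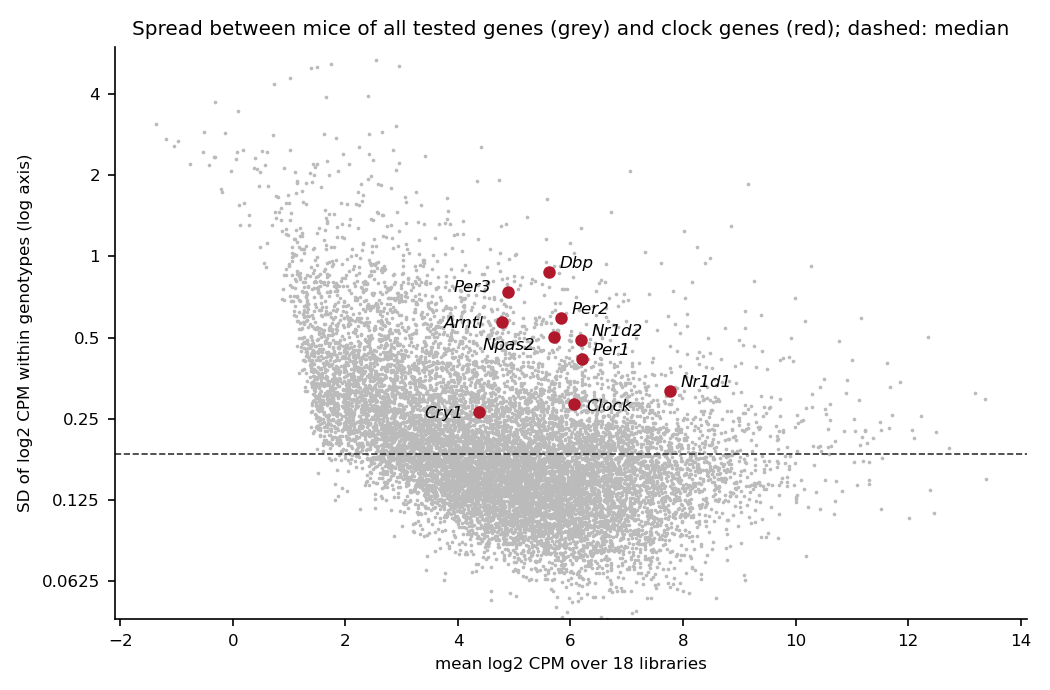
SD of log2 CPM within genotypes (y axis, log axis) against mean log2 CPM over 18 libraries (x axis) for the 12645 genes tested (grey) and the 10 clock genes (red), with the median SD of 0.19 as a dashed line. All 10 clock genes lie above the dashed line, with *Dbp* at 0.88 the highest and *Cry1* at 0.26 the lowest of them.

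The spread was ordered: the libraries in which *Dbp* was high were those in which *Arntl* was low. The widest step in *Dbp* lay between 39.1 and 68.4 CPM, 0.81 of a range of 2.46 on the log2 scale, with 10 libraries below it and 8 above. No other clock gene had its widest step between these sets: for *Arntl* (0.63), *Npas2* (0.58), *Per3* (0.53), *Per2* (0.40), *Per1*, *Cry1* and *Clock* it set 1 library apart from the other 17, for *Nr1d2* it lay between 7 and 11 libraries, and for *Nr1d1* it also divided the libraries into 10 and 8, but not into the same ones. These 2 sets of libraries were defined after the values were seen and were not compared by a test. The 8 libraries with the highest *Dbp* were the 8 with the lowest *Arntl* (10.7 to 21.3 CPM, and 31.3 to 45.2 CPM in the other 10) and the 8 with the lowest *Npas2* (22.9 to 42.5 CPM, and 48.0 to 83.0 CPM in the other 10). They were also the 8 with the highest *Per3* (32.8 to 70.5 CPM, and 16.3 to 28.1 CPM in the other 10). The ratio of *Dbp* to *Arntl* CPM within a library was therefore 3.24 to 8.55 in the 8 libraries and 0.558 to 1.22 in the other 10.

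The other 6 clock genes overlapped between the sets. For *Dbp* the lack of overlap was fixed by the cut. How many of all tested genes fail to overlap between these sets was not counted. The number of clock genes that do so therefore has no share of all genes beside it. *Nr1d2* was at 72.1 to 123 CPM in the 8 libraries and at 46.2 to 79.0 CPM in the other 10, and *Per2* at 56.0 to 111 CPM and 28.0 to 63.5 CPM. *Nr1d1* was at 190 to 279.8 CPM and 151 to 232 CPM, and *Per1* at 57.9 to 101.3 CPM and 36.3 to 102 CPM. *Clock* was at 43.8 to 81.2 CPM and 54.9 to 85.1 CPM, and *Cry1* at 13.1 to 22.5 CPM and 17.6 to 28.2 CPM. For *Nr1d2* and *Per2* only the ends of the ranges met. For *Per1* the top of the range in the other 10 was set by homozygous replicate 3 alone (102 CPM), and the next of these libraries was control replicate 2 at 82.1 CPM.

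**Figure D3:**
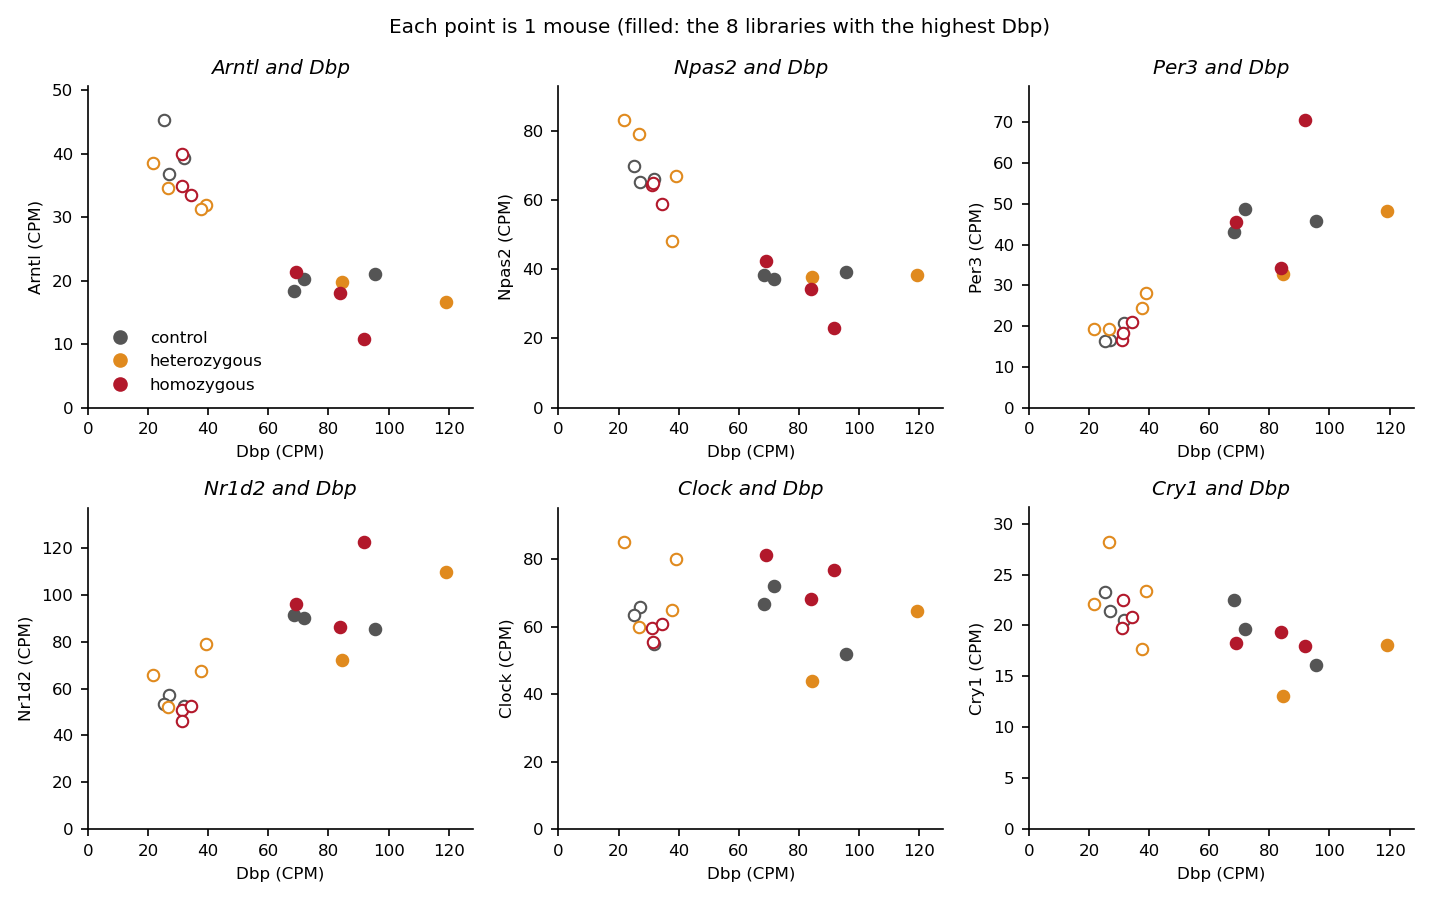
Level of *Arntl*, *Npas2*, *Per3*, *Nr1d2*, *Clock* and *Cry1* (CPM, y axes) against that of *Dbp* (CPM, x axes), with 1 point per mouse, coloured by genotype and filled for the 8 libraries with the highest *Dbp*. No library lies between 39.1 and 68.4 CPM of *Dbp*, and *Arntl* is at or below 21.3 CPM in every library to the right of this gap.

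Both sets held every genotype. The 8 libraries were control replicates 3, 4 and 6, heterozygous replicates 4 and 5, and homozygous replicates 2, 5 and 6, and they came from 4 females and 4 males. The other 10 were 3 control, 4 heterozygous and 3 homozygous libraries, from 3 females and 7 males. The ratio of *Dbp* to *Arntl* CPM had a median of 2.18 in controls (0.558 to 4.55), 1.21 in heterozygous mice (0.564 to 7.16) and 2.13 in homozygous mice (0.786 to 8.55). *Ppara* was at 31.2 to 279 CPM in the 8 libraries and at 25.8 to 216 CPM in the other 10, and library totals were 38528522 to 49348797 and 39611067 to 50376371 counts. The mean log2 level of each marker list overlapped as well. It was 5.12 to 8.07 in the 8 libraries and 5.41 to 8.82 in the other 10 for 10 smooth muscle genes, 1.06 to 5.30 and 1.25 to 5.61 for 11 B cell genes, and 10.22 to 10.64 and 9.99 to 10.45 for 9 enterocyte genes. For 8 fibroblast genes it was 6.46 to 7.76 and 6.90 to 8.00, for 6 enteric neuron genes 1.10 to 3.29 and 1.53 to 3.94, and for 5 T cell genes 2.01 to 3.16 and 1.94 to 3.36. Glucocorticoid-response genes (5.41 to 6.19 and 5.21 to 6.31), immediate early genes (5.09 to 5.49 and 4.97 to 5.80) and temperature-response genes (5.60 to 6.41 and 5.47 to 6.51) also covered overlapping ranges. The 8 known clock output genes other than *Dbp* did not overlap as a list, at 5.79 to 6.15 in the 8 libraries and 5.26 to 5.63 in the other 10. This list includes *Tef* and *Usp2*, which were among the genes most like *Dbp* (below), and its genes were not examined singly here. The 2 other clock lists did overlap, with the further regulators at 3.66 to 4.03 and 3.49 to 3.83 and the kinases and ubiquitin ligases at 5.78 to 5.96 and 5.87 to 6.07. The regulator mean includes *Ciart* and *Nfil3*, which ran opposite ways with *Dbp* (r = 0.95 and -0.85 over the 18 libraries, centred on genotype means). Its overlap therefore does not show that each regulator overlapped.

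Pairs of clock genes were then correlated between mice. With log2 CPM centred on genotype means, 23 of 45 pairs passed a permutation test within genotypes at an adjusted p under 0.05 over the 45 pairs, 13 of them positive and 10 negative. The weakest of these had an absolute r of 0.57, a value reached by 11.4% of all pairs of tested genes. This count is pooled over both sets and so includes the split between them. *Dbp* divides the libraries into 2 sets, which no other clock gene gives as its own widest step. For this reason no correlation over all 18 is given here for single named pairs, and r with *Arntl* is given below as a description. Each pair was correlated within the 10 and within the 8 libraries, which gave 90 relations. Within a set, libraries were permuted across genotypes, so the p-values given there do not account for genotype. Pairs of other genes were not counted within the sets, so the counts that follow have no share of all genes beside them. Of the 90 relations between clock genes, 19 had an unadjusted permutation p under 0.05. An adjusted p under 0.05 over the 90 relations was reached by 2, both in the set of 10. *Clock* and *Per1* were inversely related there (r = -0.86, permutation p = 0.00039, adjusted p = 0.0351; rho = -0.79, permutation p = 0.0091, adjusted p = 0.136), and r was -0.79 once the 2 libraries with the most extreme *Clock* were left out. In the 8 libraries the same pair had r = 0.46 (exact permutation p = 0.251, adjusted p = 0.54; rho = 0.024, exact permutation p = 0.977, adjusted p = 0.977), or r = 0.16 with its 2 most extreme libraries left out. *Clock* and *Nr1d2* were positively related in the set of 10 (r = 0.87, permutation p = 0.00104, adjusted p = 0.0468; rho = 0.85, permutation p = 0.00279, adjusted p = 0.103), or r = 0.75 with the 2 most extreme left out. In the 8 libraries this pair had r = 0.76 (exact permutation p = 0.0371, adjusted p = 0.191; rho = 0.62, exact permutation p = 0.115, adjusted p = 0.493), or r = 0.14 with the 2 most extreme left out. The difference between the sets was not tested for either pair.

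*Arntl* and *Dbp* had a negative r within both sets, but neither relation passed the correction. The sets were cut on *Dbp*, and *Arntl* did not overlap between them, so both genes span only part of their range within a set. A relation that fails the correction there cannot show that the pair is unrelated. In the 10 libraries r was -0.76 (permutation p = 0.0104, adjusted p = 0.119; rho = -0.75, permutation p = 0.0179, adjusted p = 0.226) and -0.67 with the 2 most extreme libraries left out. In the 8 libraries r was -0.35 (exact permutation p = 0.314, adjusted p = 0.629; rho = -0.74, exact permutation p = 0.0458, adjusted p = 0.317) and -0.78 with the 2 most extreme left out. *Arntl* and *Npas2*, the activator genes that share repression by REV-ERB, had r = 0.93 in the 8 libraries (exact permutation p = 0.0404, adjusted p = 0.191; rho = 0.48, exact permutation p = 0.243, adjusted p = 0.591), but r was -0.25 with the 2 most extreme left out. The relation thus rested on those libraries, among them homozygous replicate 6, which had the lowest *Arntl* (10.7 CPM) and *Npas2* (22.9 CPM) of all 18 and the highest *Per2* (111 CPM), *Per3* (70.5 CPM) and *Nr1d2* (123 CPM). In the 10 libraries *Arntl* and *Npas2* had r = 0.50 (permutation p = 0.135, adjusted p = 0.418; rho = 0.48, permutation p = 0.167, adjusted p = 0.57), or r = 0.27 with the 2 most extreme left out.

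**Figure D4:**
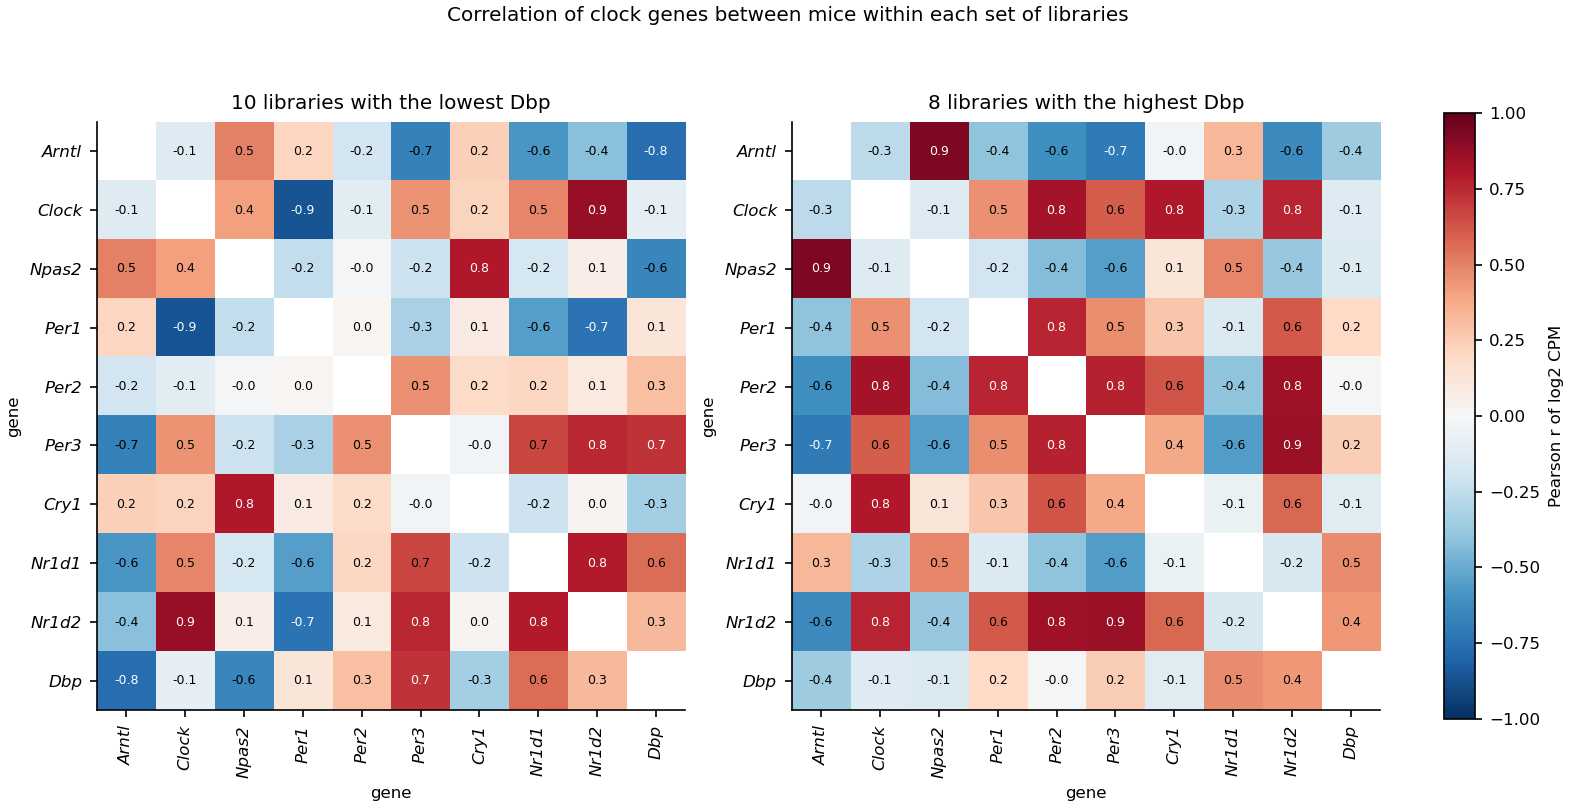
Pearson r of log2 CPM for each pair of clock genes (genes on both axes, colour scale from -1 to 1) within the 10 libraries with the lowest *Dbp* (left) and the 8 with the highest (right). *Clock* and *Per1* have r = -0.86 on the left and 0.46 on the right, and *Clock* and *Nr1d2* have 0.87 and 0.76.

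Genes outside the 10 were ranked by how closely they followed *Dbp* and *Arntl* over the 18 libraries, with log2 CPM centred on genotype means, as a description with no test. The 18 libraries share their genotypes and the split into 2 sets, so the r within each set is given as well. Within a set log2 CPM was not centred on genotype means, so that r still carries differences between genotypes and is not the same measure. The gene most like *Dbp* was *Tef*, which encodes a PAR bZIP factor of the same family, with r = 0.96 (0.77 in the 10 libraries and 0.56 in the 8) and 62.3 to 189 CPM. *Ciart*, a repressor of BMAL1 and CLOCK, had r = 0.95 (0.72 and 0.52) at 2.30 to 13.9 CPM. *Usp2*, a deubiquitinase, had r = 0.93 (0.58 and 0.87) at 41.7 to 133 CPM. The next 5 were *Fdps* (farnesyl diphosphate synthase, r = 0.92), *Scd2* (a fatty acid desaturase, 0.91), *Anxa7* (an annexin, 0.90), *Acat2* (a cytosolic acetyl-CoA acetyltransferase, 0.89) and *Elovl1* (a fatty acid elongase, 0.88). Within the sets, *Fdps* kept r = 0.69 and 0.61, *Anxa7* had 0.38 and 0.60 and *Elovl1* 0.60 and 0.37, whereas *Scd2* had -0.018 and 0.36 and *Acat2* -0.17 and 0.55.

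The 8 genes most opposed to *Dbp* were *Denn2b*, *Irf2bp2*, *Adamts4*, *Stk38*, *Ypel2*, *Klhl18*, *Nfil3* and *Deptor*, with r from -0.92 to -0.84. *Nfil3*, which encodes a repressor that binds the D-box, had r = -0.85 (-0.22 in the 10 libraries and -0.36 in the 8) at 3.34 to 16.4 CPM. *Irf2bp2*, a transcriptional co-repressor, had r = -0.92 (-0.73 and -0.53). The r within the sets was -0.34 and -0.041 for *Denn2b*, -0.20 and -0.084 for *Adamts4*, -0.48 and -0.12 for *Stk38*, -0.17 and -0.24 for *Ypel2*, 0.0049 and -0.74 for *Klhl18*, and -0.48 and 0.020 for *Deptor*. The gene most like *Arntl* was *Adamts4*, a metalloprotease, with r = 0.96 (0.22 and 0.43). It was followed by *Denn2b*, *Ypel2*, *Glipr2*, *Ppfibp2*, *Irf2bp2*, *Tor4a* and *Dab1*, with r from 0.94 to 0.86. Within the sets these had 0.42 and 0.39, 0.15 and 0.75, 0.57 and 0.69, 0.19 and 0.43, 0.73 and 0.20, 0.27 and 0.79, and 0.14 and 0.77, in the order named. Most opposed to *Arntl* was *Tef* (r = -0.97; -0.69 and -0.89), then *Ciart*, *Lss* (lanosterol synthase), *Etf1* (a translation termination factor), *Usp2*, *Scd2*, *Anxa7* and *Pacsin2*, with r from -0.92 to -0.87. Within the sets, *Ciart* had -0.66 and -0.47, *Lss* 0.15 and -0.42, *Etf1* -0.27 and -0.31, *Usp2* -0.46 and -0.39, *Scd2* 0.29 and -0.55, *Anxa7* -0.76 and -0.30 and *Pacsin2* -0.16 and -0.54. On the same centred measure over the 18 libraries, the clock genes had r with *Arntl* of 0.96 (*Npas2*), -0.95 (*Per3*), -0.93 (*Dbp*), -0.91 (*Nr1d2*) and -0.85 (*Per2*). It was -0.72 for *Nr1d1*, -0.50 for *Per1*, 0.45 for *Cry1* and -0.16 for *Clock*. These values include the split between the sets.

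No clock gene was called different between genotypes. Homozygous mice against controls gave 0 of 10 clock genes with an adjusted p under 0.05 in edgeR, where 0.411% of the 12645 genes tested were called, and 0 of 10 at an unadjusted p under 0.05, where 8.06% of all genes had such a p. Heterozygous mice against controls gave 0 of 10, where 0.293% of all genes were called, and homozygous against heterozygous mice 0 of 10, where 0.00791% were called. Neither of these had a clock gene at an unadjusted p under 0.05, where 5.29% and 7.61% of all genes had one, so that in each comparison the count lies near the share of all genes. DESeq2 called 0 of 10 in all 3. The median log2 fold change of the 10 genes was 0.08, 0.05 and -0.01 in these comparisons, and that of all tested genes was -0.005, -0.006 and -0.0001. The 3 comparisons share libraries. For all 10 genes, the CPM ranges of any pair of genotypes overlapped.

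Among the activators, *Arntl* had a log2 fold change of -0.19 (95% interval -0.81 to 0.42, edgeR adjusted p = 0.919) in homozygous mice against controls, with means of 26.4 ± 11.4 and 30.2 ± 11.6 CPM (SD, n = 6 each). *Clock* had 0.10 (-0.21 to 0.42) and *Npas2* -0.14 (-0.68 to 0.41). *Npas2* also had the largest difference between homozygous and heterozygous mice in size, -0.33 (-0.87 to 0.22, edgeR adjusted p = 0.728), with means of 47.9 ± 17.4 and 58.8 ± 20.2 CPM. Among the repressors, homozygous mice against controls gave 0.15 (-0.30 to 0.61) for *Per1*, 0.08 (-0.56 to 0.73) for *Per2*, 0.12 (-0.71 to 0.94) for *Per3* and -0.06 (-0.36 to 0.24) for *Cry1*. The REV-ERB genes gave -0.02 (-0.37 to 0.34) for *Nr1d1* and 0.09 (-0.46 to 0.64) for *Nr1d2*. *Dbp* had 0.11 (-0.86 to 1.08, edgeR adjusted p = 0.975), with means of 56.9 ± 28.0 and 53.3 ± 29.3 CPM. The interval was narrowest for *Cry1* and widest for *Dbp*, so these libraries bound a difference in *Dbp* far less closely than one in *Cry1*, *Clock* or *Nr1d1*.

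Heterozygous mice against controls gave log2 fold changes from -0.21 (*Per2*, 95% interval -0.85 to 0.44) to 0.19 (*Npas2*, -0.36 to 0.73), and edgeR's adjusted p was 0.9996 for every clock gene. Here *Arntl* had -0.04 (-0.65 to 0.58), *Dbp* 0.09 (-0.88 to 1.07) and *Nr1d1* 0.14 (-0.22 to 0.50). In both comparisons with controls every interval included 0.

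**Figure D5:**
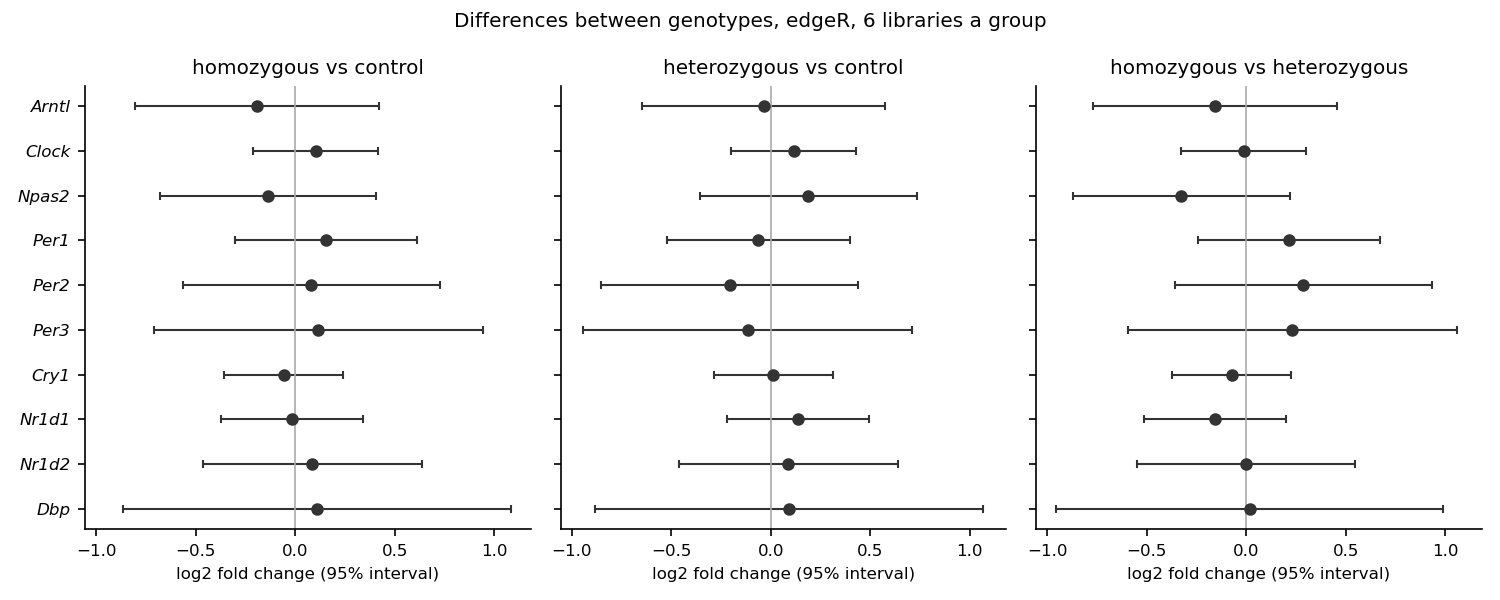
Log2 fold change (x axis; point) and its 95% interval (whisker) of each clock gene (y axis) in the 3 comparisons of genotypes, from edgeR with 6 libraries a group. Every interval includes 0, and the widest is that of *Dbp* in each panel.

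Markers of 6 cell types were read beside these values, and none was called. In homozygous mice against controls, 10 of 10 smooth muscle genes had a positive log2 fold change (median 0.57) and 11 of 11 B cell genes a negative one (median -2.54). All 8 fibroblast genes (median 0.34) and all 6 enteric neuron genes (median 0.58) had a positive log2 fold change, the 4 tested T cell genes had a negative one (median -0.81, lowest edgeR adjusted p = 0.151), and 5 of 9 enterocyte genes had a positive one (median 0.009). None of the 6 lists held a gene with an adjusted p under 0.05, while 11 B cell genes, 4 of 4 tested T cell genes, 2 fibroblast genes, 1 enterocyte gene, 1 enteric neuron gene and 0 smooth muscle genes had an unadjusted p under 0.05 in edgeR, as did 8.06% of all genes. In heterozygous mice against controls, 0 of 10 smooth muscle genes had a positive log2 fold change (median -0.18). A positive one was found in 2 of 8 fibroblast genes (median -0.03) and 1 of 6 enteric neuron genes (median -0.07). Enterocyte genes gave 7 of 9 (median 0.02), B cell genes 0 of 11 (-1.27) and tested T cell genes 0 of 4 (-0.68). The mean log2 level of the smooth muscle list was 5.12 to 8.23 in controls, 5.41 to 7.74 in heterozygous mice and 7.70 to 8.82 in homozygous mice, and that of the B cell list was 1.30 to 5.61, 1.14 to 4.82 and 1.06 to 3.15. The B cell list was high only in control replicates 2 (5.61) and 3 (5.30), heterozygous replicate 2 (4.82) and homozygous replicate 1 (3.15). Every other library was at or below 1.57. The B cell differences against controls thus rest largely on control replicates 2 and 3, and the 11 genes are not 11 separate results. The part of these markers in the levels of the clock genes was not tested.

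The spread between mice was also compared between genotypes, by limma on absolute deviations from the genotype mean of log2 CPM. It called 0 of 10 clock genes in all 3 comparisons, where 0% of all genes were called. At an unadjusted p under 0.05 there were 0 clock genes for homozygous mice against controls, 0 for heterozygous mice against controls and 2 for homozygous against heterozygous mice, where 6.93%, 7.16% and 5.93% of all genes had such a p. *Cry1* was one of the pair, with an SD of log2 CPM of 0.092 in homozygous mice, 0.39 in heterozygous mice and 0.22 in controls (limma adjusted p = 0.79 for homozygous against heterozygous mice). *Nr1d2* was the other, with 0.61, 0.40 and 0.43 (limma adjusted p = 0.791). *Dbp* had SDs of 0.85 in controls, 0.99 in heterozygous mice and 0.77 in homozygous mice, and *Arntl* 0.54, 0.45 and 0.69.

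Other genes of the clock were read from 3 lists. Of 11 further regulators with a row, 9 were tested, and *Arntl2* and *Rorb* did not pass the filter. None was called in any comparison, and in homozygous mice against controls 1 of 9 had an unadjusted p under 0.05 (8.06% of all genes), with a median log2 fold change of 0.03. The largest differences there were in *Bhlhe41*, a repressor of E-box genes (0.40 ± 0.31, SE), *Rora*, an activator at ROR elements (0.27 ± 0.12, edgeR adjusted p = 0.587), and *Timeless*, a replication fork protein (-0.22 ± 0.11). None of the 8 output genes was called either, with 1 at an unadjusted p under 0.05, likewise near the share of all genes, and a median of 0.20. *Noct*, a phosphatase of NADP, had 0.25 ± 0.20, *Klf10*, a zinc finger factor, 0.25 ± 0.10 (edgeR adjusted p = 0.57) and *Hlf*, the third PAR bZIP factor, 0.22 ± 0.40. Of 10 kinase and ubiquitin ligase genes for enzymes that act on clock proteins, 0 were called and 0 had an unadjusted p under 0.05, with a median of -0.04. The largest differences were -0.17 ± 0.15 in *Fbxl21*, a ligase subunit for CRY, 0.12 ± 0.08 in *Csnk1e*, a kinase of PER, and -0.08 ± 0.07 in *Fbxw7*, a ligase subunit.

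Lists of genes that respond to glucocorticoids, to acute stimuli and to temperature were read in the same way, because these signals reach the clock. In homozygous mice against controls none of their 6, 8 and 6 genes was called by edgeR, and 0, 2 and 0 had an unadjusted p under 0.05, beside 8.06% of all genes. Their median log2 fold changes were -0.01, 0.15 and 0.10. *Dusp1*, a phosphatase of MAP kinases, had 0.22 ± 0.16 (SE), *Sgk1*, a kinase, 0.20 ± 0.23 and *Tsc22d3*, a glucocorticoid-induced factor, -0.15 ± 0.15. The immediate early factors *Atf3*, *Jun* and *Fos* had 0.46 ± 0.22 (edgeR adjusted p = 0.616), 0.35 ± 0.15 (edgeR adjusted p = 0.598) and 0.31 ± 0.29. The heat shock genes *Hspa1a*, *Hspa1b* and *Hsph1* had 0.52 ± 0.39, 0.42 ± 0.37 and 0.14 ± 0.28. *Hspa1a* and *Hspa1b* are near-identical copies, so reads could be split between them or left out as ambiguous.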

How the data were processed

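Poly-A RNA of whole-thickness ileum was sequenced by the authors as paired reads, aligned with STAR to GRCm38 with the annotation of Ensembl release 101, and uniquely aligned, unambiguous reads were counted per gene with featureCounts. The deposited counts are not normalized. The CPM values deposited by the authors divide counts by the library total, deposited FPKM are scaled by gene length too, and deposited log2 CPM are moderated by a prior count not given in the sources used here. Positions are those of the deposited files.

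From the counts, 12645 protein-coding genes above 3 CPM in 4 or more libraries were fitted with edgeR 4.0.16 (glmQLFit, glmQLFTest, TMM, all 18 libraries, no covariate) in R 4.3.3, with Benjamini-Hochberg adjustment over all genes and a threshold of 0.05. Intervals cover 95%. CPM levels per library are the deposited ones. Log2 CPM for spread, correlation and likeness used TMM and a prior count of 2, and list levels are means of log2(CPM + 1). Spread was tested with limma 3.58.1. Correlations used 100000 permutations (40320, exact, for 8 libraries) in Python 3.11.15 with numpy 2.4.6 and pandas 2.3.3. Libraries were permuted within genotypes over all 18, and across genotypes within each set. Fits and the spread test were tested on simulated data. Figures used matplotlib 3.10.9.

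The clock genes, the lists and the tests were chosen with earlier results of these data known. The genes named are the 10 clock genes, *Ppara*, list genes that were called or had the 3 largest differences between homozygous mice and controls, and the 8 most and 8 least similar genes to *Arntl* and *Dbp*. *Vil1*, *Epcam*, *Myh11* and *Des* as tissue checks and the overlapping genes were named after their values were seen. Alternatives tried were the Wald test of DESeq2 1.42.0, its size factors in edgeR, library size, limma on the deposited log2 CPM, no filter, all biotypes, only the libraries compared, sex as a covariate, a replicate block and leaving out each library, for spread also centring on the median, and for pairs no centring, centring on genotype and sex, and Spearman's rho.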

Additional observations from a re-analysis of the deposited data

Results flagged for a closer look

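In the 30 groups of 6 libraries (10 clock genes in 3 genotypes, log2 CPM), the highest and the lowest library were set against the rest by Dixon's ratio of gap to range, and 0 passed its 95% critical value. The ratio was highest, at 0.61, for *Cry1* in control replicate 4 (16.1 CPM).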

How the results depend on the processing

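No clock gene was called for level or for spread in any comparison under any alternative, 27 for each comparison of levels and 21 for each of spread. Over all genes, DESeq2's Wald test called 136, 80 and 9 genes (homozygous against control, heterozygous against control, homozygous against heterozygous), where edgeR called 52, 37 and 1. Fitting only the libraries compared called 57, 23 and 0. Without the filter on low counts the spread test called 180, 190 and 170 genes in place of 0 in each. The number of correlated pairs was 23, and 22 to 28 without one library. Of 540 log2 fold changes of the clock genes against controls under an alternative, 45 had the other sign, in 12 of 20 results. In heterozygous mice against controls, *Cry1* (0.01) was -0.0142 by library size, -0.0444 by limma on the deposited log2 CPM and -0.00387 with a replicate block, and *Dbp* (0.09) was -0.0400 by limma and -0.0248 with a replicate block. In homozygous mice against controls, *Per2* (0.08) was -0.00249 by limma and *Nr1d1* (-0.02) was 0.0259 with sex as a covariate. The cause was not tested. Leaving out one library moved the heterozygous values of *Arntl* from -0.14 to 0.10, *Cry1* from -0.0939 to 0.12, *Dbp* from -0.32 to 0.31, *Nr1d2* from -0.0728 to 0.20, *Per1* from -0.20 to 0.0686 and *Per3* from -0.35 to 0.0572. It moved the homozygous values of *Dbp* from -0.0829 to 0.33, *Npas2* from -0.24 to 0.00361, *Nr1d1* from -0.12 to 0.0686, *Nr1d2* from -0.11 to 0.20, *Per2* from -0.15 to 0.24 and *Per3* from -0.23 to 0.29. The signs of these small differences are therefore not fixed by the data. No adjusted p among these 540 values against controls was below 0.769.

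No pairing of the samples by the replicate numbers in the labels was visible. Of 18 same-numbered pairs of libraries, 9 had a correlation over 0.1 (range -0.61 to 0.64), and 3 of 18 libraries correlated best with their own number. These correlations cannot show whether mice of the same number were matched by design. The replicate block called 49, 22 and 0 genes and 0 clock genes. Every clock gene had at least 501 counts in every library, and the part of counting error in the spread between mice was not tested.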
